A study of Mus musculus with 6 samples.

Results

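The 63 genes described here encode the main axon guidance ligands and receptors: ephrins and Eph receptors, semaphorins with their plexin and neuropilin receptors, Slits and Robos, and netrins with Dcc and the Unc5 receptors. They were chosen by mouse symbol, from the Ensembl identifiers of the table, and by a mean normalized count of at least 10 over the 6 libraries. By symbol 71 of the 31245 listed genes matched, and 63 of these passed the minimum, among 16653 genes that passed it in all. Of the 8 below it, 6 code for guidance proteins and 2 are the antisense genes Plxna4os1 and Plxna4os2. Mean normalized counts were 13.1 for Efna4, 21.3 for Epha2 and 22.9 for Sema3b just above the minimum, and 9.09 for Efna1, 7.27 for Ntn5 and 6.84 for Plxnb3 just below it. Sema3g, Epha1 and Robo4, at 6.53, 5.32 and 0.901, were also below.

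RNA was sequenced from 6 primary cultures of mouse cortical neurons. Cortices came from pups at postnatal day 1, and the cultures were used after 12 to 13 days in vitro in Neurobasal A with B27. In 3 of them (NGPF2 1, 2 and 3) NGPF2 was present at 1.5 ng/ml for 2 h, and the other 3 (vehicle 1, 2 and 3) received PBS for the same time. The labels name no strain, sex, genotype or number of pups, and all 6 cultures share the medium and the coating of poly-D-lysine. The series describes 3 pairs from 3 independent experiments, and a pair here is the NGPF2 and vehicle cultures of the same replicate number. Total counts ran from 17478070 to 45193691 per library. A normalized count is the count divided by the size factor of its library, and log2 differences are NGPF2 minus vehicle of the normalized count plus 1.

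By their library names replicates 2 and 3 belong together and replicate 1 stands alone, in both groups, and each result is given over the 3 pairs and inside these 2 library batches. Replicate 1 holds 1 library a group and gets no test of its own. Markers of neurons were abundant in every library, with a summed normalized count of 6 markers between 163247 and 213496. Astrocyte markers were not stable between the groups in replicates 2 and 3. The summed level of 14 markers was 19845 and 16368 in NGPF2 2 and 3, against 75098 and 68525 in vehicle 2 and 3. In replicate 1 the sum was 31493 with NGPF2 against 27793 with vehicle. Slc1a2 alone held 6056 of the sum in NGPF2 1 and 2697 in vehicle 1. It held 12812.5 and 10237 in NGPF2 2 and 3, against 21468.5 and 18606 in vehicle 2 and 3. The middle one of the 13 markers over the minimum differed by 0.02, -2.80 and -2.76 in log2 in pairs 1, 2 and 3. Of the 13 astrocyte markers over the minimum 12 were lower in replicates 2 and 3 and none was higher, and Gjb6 was at 0 in at least 1 library. Markers of microglia (8 of 11 lower), oligodendrocyte precursors (4 of 6), dividing or progenitor cells (8 of 10), fibroblasts or mural cells (4 of 9) and oligodendrocytes (2 of 6) were lower as well, whereas 0 of 3 endothelial markers passed and Cldn5, Cdh5, Kdr and Tie1 were at 0 in at least 1 library. Of the neuronal lists 5 of 12 excitatory markers were higher and 4 lower, 6 of 13 inhibitory markers were higher and 3 lower, and 3 of the 6 general markers were higher and 0 lower. In bulk RNA fewer cells of a type cannot be told apart from less RNA per cell. The part of these cell types in the differences below was not tested.

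Axon guidance proteins steer growth cones by attraction or repulsion, and many stay expressed in the mature cortex, where they act on dendritic spines, synapses and branching. Ephrin-A ligands are held in the membrane by a lipid anchor and ephrin-B ligands by a transmembrane segment, and both signal to Eph receptor tyrosine kinases on a neighbouring cell. Semaphorins act through plexins, and the secreted class 3 members mostly need a neuropilin as co-receptor. Slits repel through Robo receptors, and netrin-1 attracts through Dcc and repels through Unc5 receptors.

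Over the 3 pairs none of the 63 genes passed an adjusted p of 0.05 (limma with the replicate as a block, Benjamini-Hochberg adjustment over 16653 genes), and none of all genes did (0.00%). The smallest adjusted p among the 63 was 0.379. At an unadjusted p under 0.05 there were 14 of the 63, against 13.0% of all genes. With voom on the recovered counts there were 10 of the 63, against 1315 of all 16653 genes. Without the pair of replicate 1, 22 of the 63 passed the adjusted threshold, and so did 3275 of all 16653 genes. The 3 higher genes of smallest p were Ephb2 (log2 difference 0.68, SE 0.18), Sema4a (0.68, SE 0.20) and Plxnd1 (0.51, SE 0.17). On the lower side they were Ntn1 (-0.96, SE 0.32), Plxnb1 (-1.38, SE 0.46) and Sema5a (-0.57, SE 0.23). In pair 1 alone no guidance gene differed by more than 2-fold, against 2.43% of all genes. In pair 2 there were 8 such guidance genes (15.4% of all genes) and in pair 3 there were 9 (15.9%). The sign was the same in all 3 pairs for 24 of the 63 (20 higher, 4 lower). Over all genes it was the same for 36.4% (2924 higher, 3146 lower, of 16653).

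Within replicates 2 and 3 the guidance genes moved in both directions. There, 15 of the 63 were higher with NGPF2 and 8 were lower at an adjusted p under 0.05 (limma, 2 libraries against 2), which is 23.8% and 12.7% of the genes. Over all genes tested 9.77% were higher and 11.3% lower (21.1% together), so that the lower share of the guidance genes was near that of the table. The median log2 difference of the 63 genes was 0.05 in replicates 2 and 3, and -0.00 over all genes. By pair it was 0.05, 0.16 and 0.01 in pairs 1, 2 and 3. Receptors were called more often than ligands, 14 of 31 against 9 of 32, a difference that was not tested. "Rose" and "fell" in what follows refer to this test in replicates 2 and 3. Without regard to the test, 41 of the 63 had NGPF2 values of replicates 2 and 3 that lay wholly above or below the vehicle values, against 64.9% of all genes. These calls take replicates 2 and 3 as independent cultures, which rests on the 3 stated experiments. They also rest on both vehicle libraries: without vehicle 2 or without vehicle 3, which leaves 1 vehicle library, all of these calls were lost. With scaling to library totals, which put the median of all genes at -0.13 in log2, 12 guidance genes were higher and 11 lower (over all genes 982 and 2665, against 1627 and 1884 with size factors). With no minimum 2 were higher and 1 lower (337 and 737 of all 31245 genes). With a variance prior that ignores the mean 4 were higher and 5 lower (over all genes 442 and 1093). Most calls named below thus also ended under these 2 settings.

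**Figure D1:**
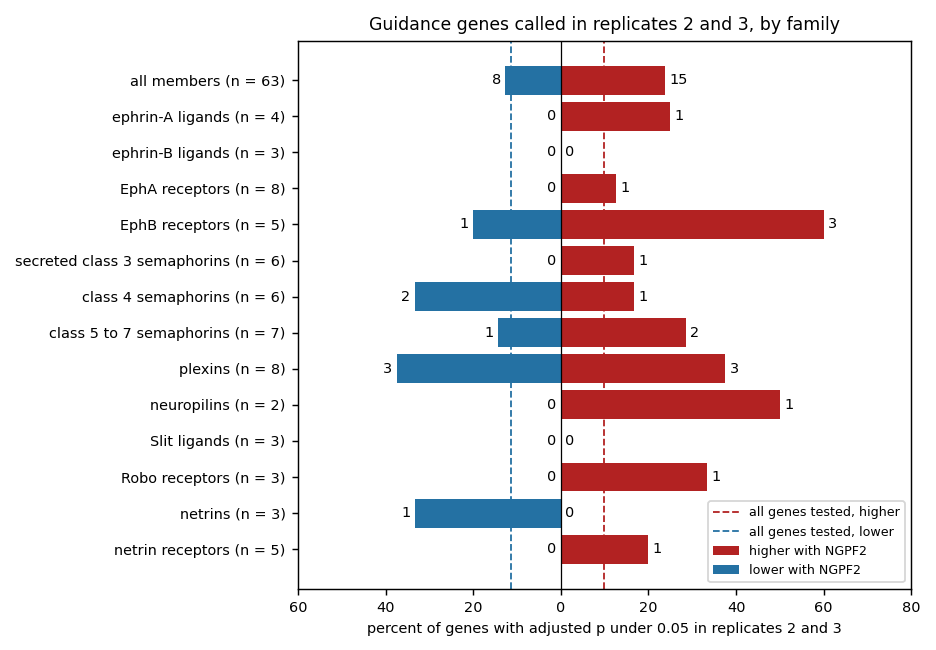
Percent of genes with an adjusted p under 0.05 in replicates 2 and 3 for all 63 guidance genes and for each family, higher with NGPF2 to the right and lower to the left, with the number of genes at the end of each bar. Dashed lines mark the shares over all genes tested, 9.77% higher and 11.3% lower. EphB receptors (3 higher, 1 lower) and plexins (3 higher, 3 lower) held the most calls, and ephrin-B ligands and Slits held none.

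Of the 7 ephrin ligands over the minimum 1 passed. The 3 ephrin-B ligands stayed between -0.12 and 0.14 in log2 difference in every pair and none passed. Efnb2, a ligand of EphB and EphA4 receptors, had 4934, 3132 and 3087 normalized counts in NGPF2 1, 2 and 3, against 4925, 2990.2 and 3061 in vehicle 1, 2 and 3. Over all 3 replicates the 2 groups of Efnb2 overlapped, while NGPF2 2 and 3 lay narrowly above vehicle 2 and 3. The step between replicate 1 and the other replicates was far larger than any step between groups. Efnb3 showed such a step between replicates too, at 6179, 2208 and 1827 normalized counts with NGPF2 and 6096, 2003 and 1877 with vehicle. Efnb1 lay between 579.7 and 702 normalized counts in all 6 libraries. Of the 4 ephrin-A ligands measured, Efna3 (ENSMUSG00000028039, chromosome 3, 89313899 to 89322965, mm10) rose 1.29-fold (log2 difference 0.37, SE 0.09, adjusted p = 0.0477). It stood at 1589, 2080.2 and 1845 normalized counts with NGPF2 and at 1582, 1560.3 and 1478 with vehicle, so that all 3 NGPF2 values lay above all 3 vehicle values, by a small margin in pair 1. Its adjusted p was 0.0975 with library total scaling, 0.177 with no minimum, 0.131 with a variance prior that ignores the mean and 0.0984 without NGPF2 2. Efna5 had log2 differences of 0.02, -0.28 and -0.49 in pairs 1 to 3 and did not pass, nor did Efna2 and Efna4, the last with 5.98 to 19.2 normalized counts.

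EphB receptors were the family with the most calls for its size. Ephb1, Ephb2 and Ephb3, which bind ephrin-B ligands and take part in spine and synapse formation, rose together, and Ephb4, best known as the venous partner of ephrin-B2, fell. Ephb2 (ENSMUSG00000028664, chromosome 4, 136647539 to 136835988) had 1439.9, 2882 and 2550.3 normalized counts in NGPF2 1, 2 and 3, against 1279, 1442 and 1399 in vehicle 1, 2 and 3. Only NGPF2 2 and 3 stood clear of the vehicle cultures, at 1.91-fold (log2 difference 0.93, SE 0.09, adjusted p = 0.00455). Ephb3 (ENSMUSG00000005958, chromosome 16, 21204755 to 21223305) had 471, 1289 and 1278 normalized counts with NGPF2 and 456, 554 and 714 with vehicle. It rose 2.04-fold (log2 difference 1.03, SE 0.14, adjusted p = 0.0105), with NGPF2 1 and vehicle 1 nearly equal. Ephb1 (ENSMUSG00000032537, chromosome 9) had 583, 1053 and 797 normalized counts with NGPF2 and 549, 535 and 568 with vehicle, and rose 1.66-fold (adjusted p = 0.0323). Its 3 NGPF2 values lay above its 3 vehicle values, as did those of Efna3 and of no other guidance gene. Among all genes 10% had groups that did not overlap. Without NGPF2 2 the adjusted p of Ephb1 was 0.0521.

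Ephb4 (ENSMUSG00000029710, chromosome 5, 137350109 to 137378669) was low throughout, at 62, 16.7 and 12.6 normalized counts with NGPF2 and 51.6, 61.6 and 62 with vehicle. It fell 4.05-fold (log2 difference -2.02, SE 0.32, adjusted p = 0.0145), and NGPF2 2 and 3 stood below the other 4 libraries. Ephb6, a member without kinase activity, had 1217, 3045 and 2628 normalized counts with NGPF2 and 1136, 2174 and 2457 with vehicle and did not pass.

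Of the 8 EphA receptors 7 did not pass. Epha10, which also lacks kinase activity, rose 1.46-fold (log2 difference 0.54, SE 0.10, adjusted p = 0.0252). It had 1044, 980.3 and 859.7 normalized counts with NGPF2 and 1051, 633 and 625 with vehicle. The NGPF2 values of Epha10 stayed near those of replicate 1, while vehicle 2 and 3 were lower. Without NGPF2 2 its adjusted p was 0.0586. Epha4, which binds ligands of both ephrin classes, had 1738, 7445 and 6346 normalized counts with NGPF2 and 1727, 5446 and 7934 with vehicle, so that pairs 2 and 3 went opposite ways (log2 differences 0.45 and -0.32). Epha7 differed by at most 0.03 in log2 in each pair. Epha5 had 5492, 7210.2 and 8302 normalized counts in NGPF2 cultures and 5239, 6834 and 6688 in vehicle cultures. Its mean per kilobase of exon was below that of Epha4 (396 against 634). With the longest transcript as length it was above (904 against 807). Epha3 and Epha6 lay within 0.21 of 0 in each pair. Epha8 was 0.56 and 0.45 higher in pairs 2 and 3 and did not pass, and Epha2 had no count in NGPF2 3, where 3 counts correspond to 5.38 normalized counts.

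**Figure D2:**
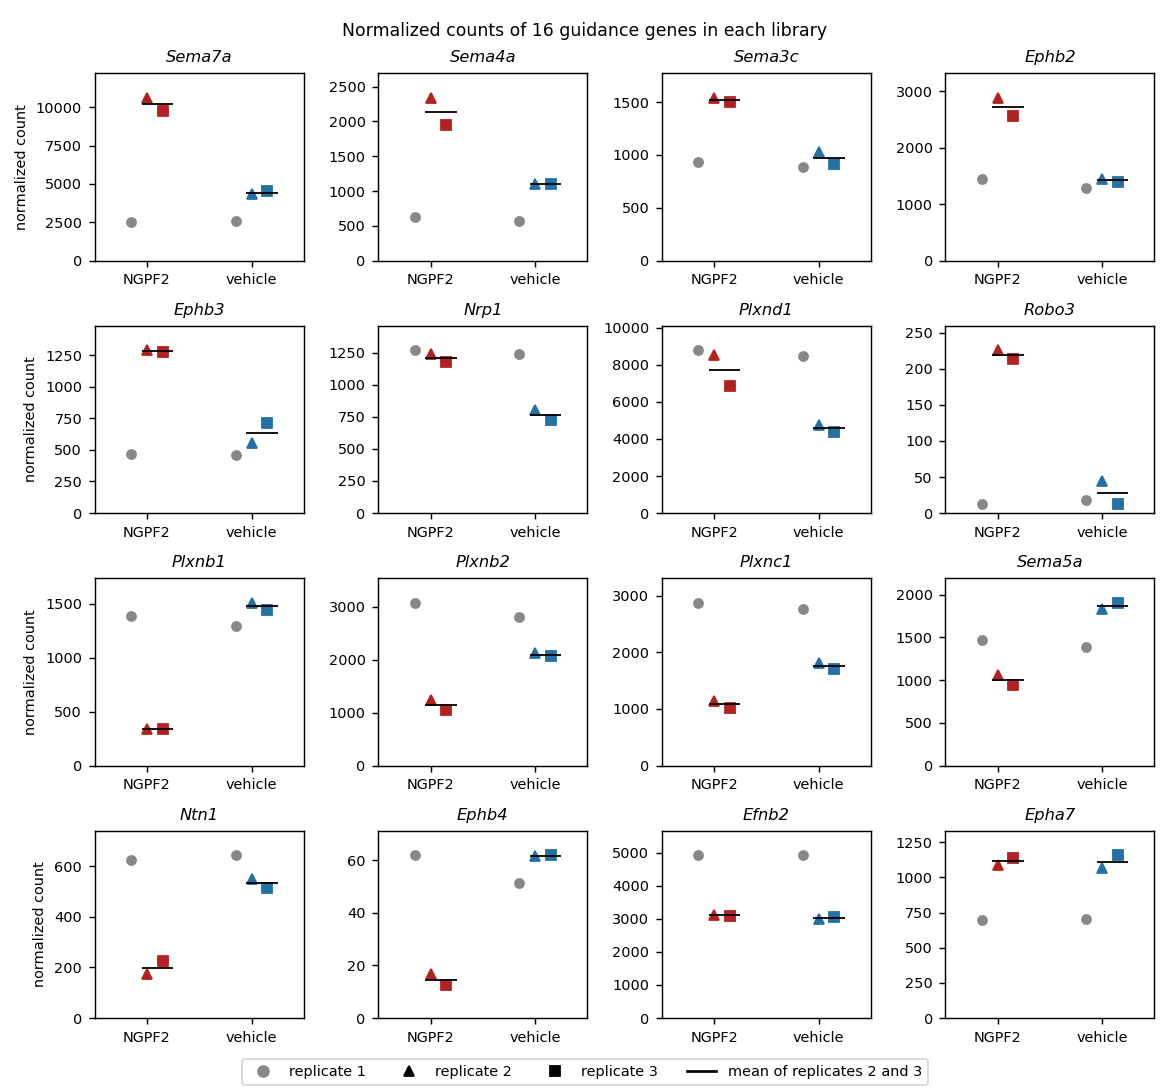
Normalized counts (y axis, from 0) of 16 guidance genes in the NGPF2 and vehicle libraries, with a circle for replicate 1, a triangle for replicate 2 and a square for replicate 3, and a line at the mean of replicates 2 and 3. Sema7a reached 10619 and 9751 in NGPF2 2 and 3 against 4342 and 4514 in vehicle 2 and 3, Plxnb1 stood at 336 and 341 against 1511 and 1439.6, and replicate 1 of these 2 genes was nearly equal between the groups.

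Among the semaphorins 4 of 19 rose and 3 fell. Sema7a (ENSMUSG00000038264, chromosome 9, 57940112 to 57962865), a lipid-anchored semaphorin that binds plexin C1 and integrins, had 2517, 10619 and 9751 normalized counts in NGPF2 1, 2 and 3, against 2574, 4342 and 4514 in vehicle 1, 2 and 3. It rose 2.30-fold in replicates 2 and 3 (log2 difference 1.20, SE 0.07, adjusted p = 0.00182) and differed by -0.03 in pair 1. The test of the difference itself gave an effect 1.23 larger in replicates 2 and 3 than in replicate 1 (SE 0.13, adjusted p = 0.0225, limma, interaction with the library batch). That test takes the spread of replicate 1 to be that between replicates 2 and 3. Sema7a and Plxnb1 were the 2 guidance genes that passed it, 3.17% of the 63, against 2.49% of all genes. At an unadjusted p under 0.05 there were 19 of the 63, against 20.3% of all genes. For Sema7a that call ended without vehicle 2 (adjusted p = 0.335), without vehicle 3 (0.345) and with a variance prior that ignores the mean (0.115).

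Sema4a, a transmembrane semaphorin (ENSMUSG00000028064, chromosome 3, 88435959 to 88461182), rose 1.93-fold (log2 difference 0.95, SE 0.11, adjusted p = 0.0074). It had 621, 2341 and 1942 normalized counts with NGPF2 and 566, 1105 and 1106 with vehicle, and the NGPF2 cultures of replicates 2 and 3 stood above all others. Sema3c, a secreted semaphorin that signals through neuropilins and plexin D1, had 935, 1542 and 1502 normalized counts with NGPF2 and 889, 1025 and 912 with vehicle, and rose 1.57-fold (adjusted p = 0.0114). Sema6c, a transmembrane class 6 member, had 1139, 708 and 721 normalized counts with NGPF2 and 1141, 440.3 and 454 with vehicle, a rise of 1.60-fold (adjusted p = 0.0115). In Sema6c the replicate 1 libraries were the highest of each group, so that the rise in replicates 2 and 3 did not reach the level of replicate 1.

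The 3 semaphorins that fell were Sema5a, a transmembrane member with thrombospondin repeats, Sema4b and Sema4d. Sema5a (ENSMUSG00000022231, chromosome 15, 32244810 to 32696341) had 1473, 1064 and 942 normalized counts with NGPF2 and 1384, 1826 and 1906 with vehicle. It fell 1.86-fold (log2 difference -0.90, SE 0.09, adjusted p = 0.00572). Sema4b had 614, 293 and 205 normalized counts with NGPF2 and 534, 443 and 451 with vehicle, and fell 1.82-fold (adjusted p = 0.0386). Sema4d, the ligand of plexin B1, had 1275, 842 and 858 normalized counts with NGPF2 and 1278, 1213 and 1127 with vehicle, and fell 1.38-fold (adjusted p = 0.0241, and 0.0567 without NGPF2 2). In all 3 the NGPF2 values of replicates 2 and 3 were the lowest of the 6 libraries. Summed markers of astrocytes, microglia, oligodendrocyte precursors and dividing or progenitor cells were lower in the same pairs, in which the other called semaphorins rose. A part of these cell types in either direction was not tested.

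The other 12 semaphorins did not pass. Sema3a, which repels axons through neuropilin-1, split between the pairs, with 619, 1236 and 969 normalized counts in NGPF2 1, 2 and 3 and 580.4, 926 and 1920.3 in vehicle 1, 2 and 3. The log2 differences of Sema3a were 0.09, 0.42 and -0.99, and vehicle 3 stood above all the rest. Sema6b, the second most abundant guidance gene per kilobase, was 0.50 and 0.16 higher in pairs 2 and 3. Sema3e, Sema3f, Sema4c, Sema4f, Sema4g, Sema5b, Sema6a and Sema6d lay between -0.28 and 0.41 in every pair. Sema3b and Sema3d were low, with 5.96 to 87.1 normalized counts.

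Of the 8 plexins measured, the receptors of the semaphorins, 3 rose and 3 fell. Those that rose were Plxna2, Plxna4 and Plxnd1, and those that fell were Plxnb1, Plxnb2 and Plxnc1. Plxnb1 (ENSMUSG00000053646, chromosome 9, 109095389 to 109119917), the receptor of Sema4d, had 1388, 336 and 341 normalized counts in NGPF2 1, 2 and 3, against 1294, 1511 and 1439.6 in vehicle 1, 2 and 3. NGPF2 2 and 3 stood far below the other 4 libraries, and Plxnb1 fell 4.35-fold (log2 difference -2.12, SE 0.09, adjusted p = 0.00103). Its exons share 257 bases with Gm7628 on the opposite strand, a gene with a mean of 2.59 normalized counts. Its effect in replicates 2 and 3 differed by -2.22 from that in replicate 1 (SE 0.15, adjusted p = 0.00932, and 0.335 and 0.345 without vehicle 2 and without vehicle 3). Plxnb2 (ENSMUSG00000036606, chromosome 15), which binds class 4 semaphorins, had 3079, 1243 and 1054 normalized counts with NGPF2 and 2814, 2131 and 2062 with vehicle, and fell 1.83-fold (adjusted p = 0.00783). Plxnc1, the receptor of Sema7a, had 2879, 1144 and 1016 normalized counts with NGPF2 and 2766, 1818 and 1702 with vehicle. It fell 1.63-fold (adjusted p = 0.0102), in the same libraries in which its ligand Sema7a rose 2.30-fold. In NGPF2 2 and 3, where these 3 plexins were lower, the summed astrocyte markers were lower too (19845 and 16368, against 75098 and 68525 in vehicle 2 and 3). So were those of microglia (390 and 411, against 1135 and 1095), oligodendrocyte precursors (1622 and 1744, against 8273 and 7818) and dividing or progenitor cells (5122 and 4993, against 13943 and 14845). Plxna2, Plxna4 and Plxnd1 were higher in the same libraries. A part of these cell types in either direction was not tested.

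Plxnd1 (ENSMUSG00000030123, chromosome 6, 115954811 to 115995005), the receptor of Sema3e and part of the receptor of Sema3c, had 8796, 8541 and 6879 normalized counts with NGPF2 and 8489, 4775 and 4370.1 with vehicle. It rose 1.68-fold (log2 difference 0.75, SE 0.12, adjusted p = 0.0161). Plxna4, a signalling receptor for Sema3a and the class 6 semaphorins, had 12606, 11991 and 10101 normalized counts with NGPF2 and 11853, 7196 and 7650.1 with vehicle, and rose 1.48-fold (adjusted p = 0.0203). Plxna2 rose 1.42-fold (adjusted p = 0.0419), with 10267, 18379 and 14607 normalized counts in NGPF2 cultures and 9496, 11279.5 and 11766 in vehicle cultures. Its adjusted p was 0.0596 with library total scaling, 0.248 with no minimum and 0.132 with a variance prior that ignores the mean. In Plxnd1 and Plxna4 the NGPF2 cultures stayed nearer to the level of replicate 1 than the vehicle cultures did. Plxna1 and Plxna3 did not pass, with log2 differences between -0.35 and 0.39.

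Of the 2 neuropilins Nrp1 rose and Nrp2 did not pass. Nrp1 (ENSMUSG00000025810, chromosome 8, 128358604 to 128503363), the co-receptor of Sema3a and Sema3c, had 1269.7, 1242 and 1176 normalized counts with NGPF2 and 1239, 800.3 and 728 with vehicle. It rose 1.58-fold (log2 difference 0.66, SE 0.09, adjusted p = 0.0115). Nrp2, the co-receptor of Sema3f, had log2 differences of -0.01, -0.17 and -0.36.

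**Figure D3:**
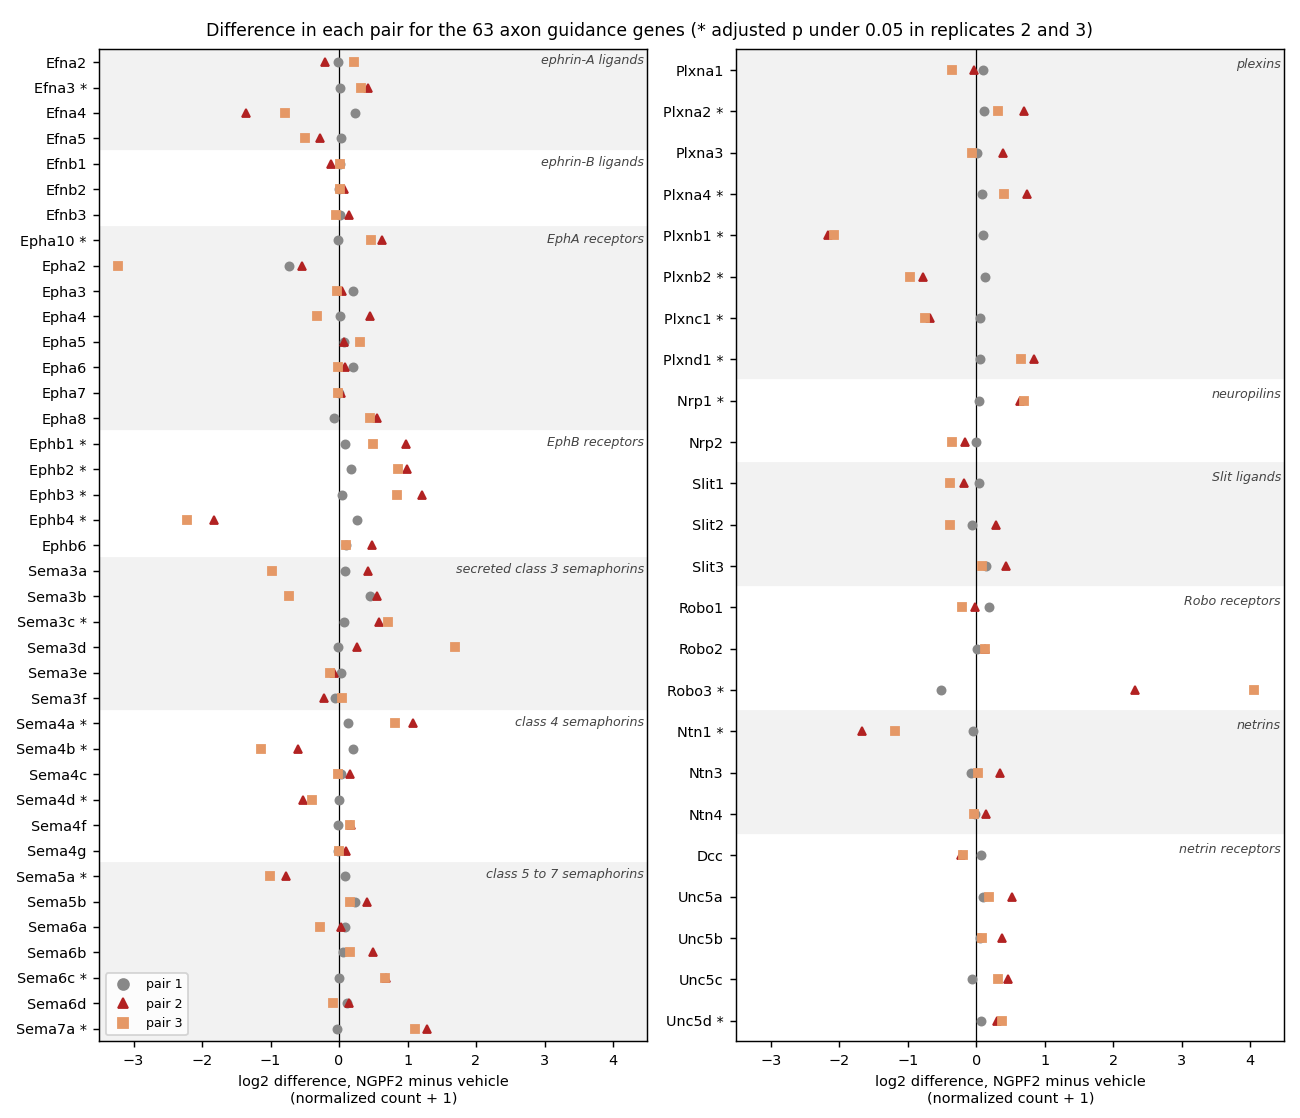
Log2 difference (NGPF2 minus vehicle, normalized count plus 1) of each of the 63 guidance genes in pair 1 (grey circles), pair 2 (red triangles) and pair 3 (orange squares), grouped by family, where markers may cover each other. An asterisk marks an adjusted p under 0.05 in replicates 2 and 3. Pair 1 stays near 0 for most genes, while Robo3 reaches 2.31 and 4.05 and Plxnb1 -2.17 and -2.07 in pairs 2 and 3.

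The sequences just upstream of the RefSeq start are shown for Ephb2 and Ephb3, which rose together. Those of Sema7a and Plxnb1, whose effect differed between the library batches, are shown as well. Each is the 250 bases before the outermost start in RefSeq (GRCm38.p6, the same build as mm10). It is on the strand of the gene and written 5′ to 3′. The windows of Ephb3 and Plxnb1 end inside the genes as placed by GENCODE, which start at 21204755 and 109095389. Capitals mark each GC box, GGGCGG on either strand, a motif bound by Sp and Klf factors.
Ephb2 (chr4:136836013-136836262, minus strand): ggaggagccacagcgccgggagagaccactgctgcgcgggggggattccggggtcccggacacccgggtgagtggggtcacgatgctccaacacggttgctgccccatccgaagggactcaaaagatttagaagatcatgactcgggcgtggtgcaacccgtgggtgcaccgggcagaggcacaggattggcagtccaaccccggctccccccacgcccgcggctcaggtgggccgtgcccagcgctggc
Ephb3 (chr16:21204545-21204794, plus strand): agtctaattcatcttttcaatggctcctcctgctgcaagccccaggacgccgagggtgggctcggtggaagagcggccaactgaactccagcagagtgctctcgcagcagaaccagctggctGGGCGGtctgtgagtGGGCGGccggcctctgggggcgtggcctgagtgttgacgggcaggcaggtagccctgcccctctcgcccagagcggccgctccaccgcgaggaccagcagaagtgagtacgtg
Sema7a (chr9:57939862-57940111, plus strand): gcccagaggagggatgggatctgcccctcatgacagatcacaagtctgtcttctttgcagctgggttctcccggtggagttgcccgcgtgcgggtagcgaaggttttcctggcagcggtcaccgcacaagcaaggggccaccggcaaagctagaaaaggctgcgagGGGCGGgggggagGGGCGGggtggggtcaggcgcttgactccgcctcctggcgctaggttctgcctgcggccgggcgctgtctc
Plxnb1 (chr9:109095186-109095435, plus strand): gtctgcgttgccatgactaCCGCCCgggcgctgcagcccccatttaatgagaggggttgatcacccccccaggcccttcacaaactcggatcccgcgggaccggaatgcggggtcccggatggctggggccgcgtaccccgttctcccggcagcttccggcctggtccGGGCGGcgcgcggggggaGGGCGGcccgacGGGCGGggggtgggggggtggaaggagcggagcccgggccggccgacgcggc
Plxnb1 held 4 GC boxes, Sema7a and Ephb3 held 2 each and Ephb2 held 0, so that Ephb2 and Ephb3 did not share this element. RefSeq gave such a window for 53 of the 63 guidance genes, of which 40 (75.5%) held at least 1 GC box, against 33.0% of 27025 windows and 58.9% of the 11065 windows of protein-coding genes over the minimum. Elements of 3 kinds of factor known from activity-dependent transcription were searched on both strands. TGACGTCA, the cAMP response element, was in 1 of the 53 windows, that of Epha2 (1.89%, against 1.60% of all windows and 2.67% of those of protein-coding genes over the minimum). TGANTCA, the AP-1 element, was in 1, that of Sema4c (1.89%, against 6.85% and 4.16%). GCGTGGGCG, the Egr element, was in 2, those of Efna3 and Plxna2 (3.77%, against 0.54% and 1.06%), and it can overlap a GC box. None of these 3 was in the 4 windows shown. A match describes letters only.

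None of the 3 Slits, secreted repellents, passed. Slit1 had 3101, 2595 and 2107 normalized counts in NGPF2 1, 2 and 3 and 3019, 2927 and 2758 in vehicle 1, 2 and 3, Slit2 had log2 differences of -0.06, 0.29 and -0.38, and Slit3 of 0.14, 0.44 and 0.09. Robo1 and Robo2, their receptors, lay between -0.21 and 0.18 in each pair. Robo3, a divergent Robo known from commissural axons that cross the midline, showed the widest difference of the 63 genes in replicates 2 and 3. It had 12.8, 226 and 214 normalized counts with NGPF2 and 18.7, 44.7 and 11.9 with vehicle. NGPF2 2 and 3 stood above the other 4 libraries, which all held few counts. Robo3 (ENSMUSG00000032128, chromosome 9, 37415669 to 37433246) rose 9.08-fold (log2 difference 3.18, SE 0.61, adjusted p = 0.0246). The call of Robo3 ended with no minimum, with a variance prior that ignores the mean, without NGPF2 2 and without NGPF2 3. The difference of its effects between the batches was 3.70 and did not pass (adjusted p = 0.158).

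Among netrins and their receptors Ntn1 fell and Unc5d rose. Ntn1 (ENSMUSG00000020902, chromosome 11, 68209364 to 68400823) had 626, 172 and 226 normalized counts in NGPF2 1, 2 and 3, against 644, 551 and 514 in vehicle 1, 2 and 3. It fell 2.69-fold (log2 difference -1.43, SE 0.17, adjusted p = 0.00783), and NGPF2 2 and 3 stood below the other 4 libraries. Dcc, its attractive receptor, had 2961, 646 and 634 normalized counts with NGPF2 and 2822, 752 and 724 with vehicle and did not pass. Unc5d, a repulsive receptor, had 3925, 1898 and 1924 normalized counts with NGPF2 and 3722, 1545 and 1474 with vehicle and rose 1.27-fold (adjusted p = 0.0337). The adjusted p of Unc5d was 0.06 with the replicate block, 0.102 with library total scaling, 0.0609 with no minimum, 0.105 with a variance prior that ignores the mean, and 0.0628 and 0.0653 without NGPF2 2 and without NGPF2 3. Unc5a, Unc5b and Unc5c were higher in pairs 2 and 3 by 0.08 to 0.53 and did not pass. Ntn3 and Ntn4, a netrin of basement membranes, lay between -0.07 and 0.34 in every pair. Exons of Ntn3 share 89 bases with the far more abundant Tbc1d24 on the same strand, so that the counts of Ntn3 are uncertain.

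Many guidance genes also differed in level between the library batches. In vehicle cultures 3 of the 63 were more than 2-fold higher in replicates 2 and 3 than in replicate 1 (7.24% of all genes), and 15 were more than 2-fold lower (8.08% of all genes). The 3 higher ones were Epha4 (3.87-fold), Sema3a (2.45-fold) and Ephb6 (2.04-fold). Of the 5 netrin receptors 4 were among the lower ones: Dcc stood at 0.262 of the level of vehicle 1, Unc5c at 0.269, Unc5d at 0.406 and Unc5b at 0.493. Plxna3, Epha8, Slit2, Sema4g and Efnb3 stood at 0.239, 0.244, 0.286, 0.294 and 0.318 of vehicle 1. NGPF2 cultures showed the same step for 13 of the 15 lower and 2 of the 3 higher genes, the exceptions being Sema6c, Unc5b and Sema3a. Vehicle 1 is 1 library, so that this comparison has no test.

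**Figure D4:**
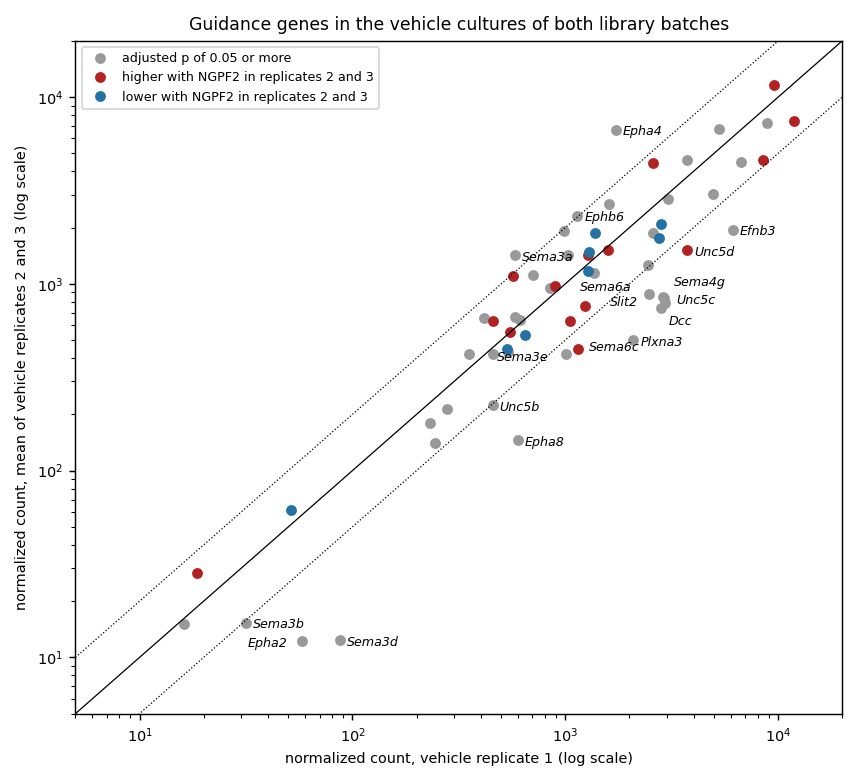
Normalized count of the 63 guidance genes in vehicle replicate 1 (x axis, log scale) against the mean of vehicle replicates 2 and 3 (y axis, log scale), with lines at equality and at 2-fold, and names for genes outside the dotted lines. Colours mark genes higher (15) or lower (8) with NGPF2 in replicates 2 and 3. Dcc, Unc5c, Plxna3 and Efnb3 lie below the lines and Epha4 above them.

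Per kilobase of exon, the scale on which genes can be set side by side, Sema7a led with a mean of 1734 normalized counts per kilobase over the 6 libraries. It stood at 763, 3219.7 and 2957 per kilobase in NGPF2 1, 2 and 3 and at 780.3, 1317 and 1369 in vehicle 1, 2 and 3. Sema6b (1188), Efnb3 (1057), Plxnd1 (955) and Plxna1 (841) followed. With the longest transcript as length Sema7a and Sema6b still led, but Plxna2 came before Efnb3 and Plxnd1, so that no receptor ranked highest on both lengths. In vehicle 2 and 3 Plxnd1, at 654 and 599 per kilobase of exon, stood below Plxna1, at 816 and 795. The order of these genes was not the same in each batch. In replicate 1 Efnb3 stood highest, at 1941 per kilobase in NGPF2 1 and 1915 in vehicle 1, above Sema7a, whereas in replicates 2 and 3 it stood at 574 to 694. Plxna2 (736), Plxna4 (726) and Efna3 (694) had neighbouring means that did not differ beyond the spread of their libraries. Of the plexins Plxnd1, Plxna1, Plxna2 and Plxna4 stood above the other 4. The netrins reached 157 at most (Ntn4) and the class 3 semaphorins 159 (Sema3c). Epha2 (4.56), Sema3d (4.69), Sema3b (4.80), Efna4 (8.19) and Ephb4 (9.58) were the lowest.

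Of 50 co-factors and cytoplasmic effectors of these receptors, all over the minimum, 9 rose and 8 fell in replicates 2 and 3 (18% and 16%), against 9.77% and 11.3% of all genes. Over the 3 pairs 0 passed, and 10 of the 50 had an unadjusted p under 0.05 (limma), against 13.0% of all genes. Rnd1, which binds plexins, had 729, 3849.6 and 4036 normalized counts in NGPF2 1, 2 and 3, against 747, 2042 and 1981 in vehicle 1, 2 and 3, and rose 1.96-fold (adjusted p = 0.0025). Crmp1, a collapsin response mediator of Sema3a signalling, rose 1.78-fold (adjusted p = 0.00359), with 27934, 29072 and 26702 normalized counts in NGPF2 cultures and 26893, 15917 and 15311 in vehicle cultures. Tiam1, a Rac exchange factor, rose 1.44-fold and Chn1, the Rac-inactivating alpha-chimaerin downstream of EphA4, 1.41-fold. Dock1, a Rac exchange factor used by Dcc, had 392, 123 and 108 normalized counts with NGPF2 and 373, 707 and 578 with vehicle and fell 5.52-fold (adjusted p = 0.00222). Vav3 fell 3.95-fold (adjusted p = 0.0152). Mical1 fell 3.09-fold (adjusted p = 0.0372), from low counts of 71.5 and 72.8 in vehicle 2 and 3 to 16.7 and 30.5 in NGPF2 2 and 3. Both calls ended with no minimum and with a variance prior that ignores the mean, and that of Mical1 also with quantile normalization. As with the receptors, all of these calls were lost without vehicle 2 or without vehicle 3. Srgap3, a cytoplasmic partner of Robo receptors, was the effector with the widest difference in pair 1, at 7045 normalized counts in NGPF2 1 against 14327 in vehicle 1, while it rose 1.26-fold in replicates 2 and 3. Srgap3 was named after its values were seen.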

How the data were processed

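Per the labels' protocols, mRNA was captured on oligo(dT) beads before fragmentation and library synthesis. The genome build was mm10, and DESeq 1.22.1, Cuffnorm, STAR 2.5 and FastQC were used in roles left unstated, per the submitters' processing notes. For annotation, counter and strand setting the sources used here say nothing (not given in the sources used here). The table the authors deposited is named as FPKM but holds log2 values of a normalized count plus 1: 100% of values gave whole counts (tolerance 0.01) after division by 1 step per library. Tests on the deposited log2 values used limma 3.58.1 (R 4.3.3, trended variance prior, two-sided, Benjamini-Hochberg over the 16653 genes whose normalized counts averaged at least 10, threshold 0.05). A pseudocount of 1 understates the change of low genes.

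The 4 columns of replicates 2 and 3 carry a library name that also stands in their titles. In each group 1 further column names only the group, with a digit that is not its replicate number, and was taken for replicate 1 as the 1 title left. Replicates 2 and 3 share a stem in the library name, read here as a library batch, which the titles do not state. The replicate block follows the stated pairs. Deviations from the group means correlated at 0.59, 0.30 and 0.33 within pairs 1, 2 and 3, but also at 0.34 and 0.32 between replicates 2 and 3 of opposite groups. The series states 3 independent experiments, but the shared stem leaves unstated whether replicates 2 and 3 are separate experiments. If they are not, p-values measure only the spread between these libraries.

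Of the identifiers 31185 had a symbol and 60 had none. Coordinates and exon lengths are those of the GENCODE M21 annotation (GRCm38), and upstream sequences are from RefSeq. A count of 3, the limit that a count of 0 allows, corresponds to 1.92 to 5.38 normalized counts by library, for counting error only. Overlapping exons and antisense genes cannot be separated without the strand setting. Genes with full statistics were up to 3 per family and direction of largest difference among those past the threshold in replicates 2 and 3, up to 3 per direction of smallest p over the 3 pairs, those past the batch interaction, the most abundant per kilobase, the 3 nearest above and below the minimum, and up to 4 effectors per direction, of which 1 is not reported here. Members, effectors and the marker lists of 10 cell types or states were chosen with earlier results of these data known. Alternatives were a pseudocount of 10, a minimum of 50, no minimum, library totals, quantile normalization, no trend, voom on recovered counts, the replicate block added or dropped, and each library left out. The scripts were tested on simulated data.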

Additional observations from a re-analysis of the deposited data

Results flagged for a closer look

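A difference of the effects between the library batches was tested with limma as the interaction of treatment and batch. Of all 16653 genes 415 passed (2.49%), among them 2 of the 63 guidance genes and 3 of the 50 effectors. Only these 5 genes are given here. The value is the log2 difference (NGPF2 minus vehicle) in replicates 2 and 3 minus that in replicate 1. It was 1.23 for the semaphorin Sema7a and -2.22 for its fellow guidance gene Plxnb1, the receptor of Sema4d. Among the cytoplasmic effectors it was 1.01 for Rnd1 (adjusted p = 0.0327), -2.54 for Dock1 (adjusted p = 0.0258) and 1.36 for Srgap3 (adjusted p = 0.0162). Srgap3 differed from the other 4 in that its effect lay in replicate 1 as well, at -1.02 in pair 1 against 0.33 in replicates 2 and 3. Without vehicle 2 or without vehicle 3 none of the 16653 genes passed this test (2004 and 1994 had an unadjusted p under 0.05, limma), and 22 passed with a variance prior that ignores the mean, against 415. With no minimum the number moved the other way, and 4684 of 31245 genes passed. Replicate 1 has 1 library a group, so that its own spread was not measured.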

How the results depend on the processing

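Over the 3 pairs the count of guidance genes called was 0 in each alternative that kept all libraries, with no replicate block among them. With no replicate block 3 had an unadjusted p under 0.05 (limma), against 1016 of all 16653 genes. The count ranged from 0 to 22 when 1 replicate was left out. The 22 were without replicate 1, where 3275 of all 16653 genes passed. In replicates 2 and 3 the 15 higher and 8 lower genes became 2 and 1 with no filter on low values and 4 and 5 with no trend in the variance prior, and ranged from 0 to 16 and from 0 to 10 with 1 library left out. The 17 effectors became 2 with no filter and 6 with no trend, and ranged from 0 to 20 with 1 library left out. With no filter 31245 genes were tested, and 4684 of them passed the test of the difference between batches. The 2 genes whose effect differed between batches became 4 with a pseudocount of 10, a minimum of 50 or quantile normalization. They became 5 with library totals, 9 with voom and 0 with no trend. Over all genes the 415 became 597, 733 (of 13278 tested), 563, 580, 1368 and 22 in that order of settings. Both calls were lost without vehicle 2 or without vehicle 3. The median log2 difference of the guidance genes, 0.05, was -0.0732 with library totals and ranged from -0.0207 to 0.18 with 1 library left out. No result changed sign among the named genes. With the replicate block added in replicates 2 and 3, 14 guidance genes were higher and 8 lower (over all genes 1436 and 1839). Of the named calls it ended that of Unc5d. Sema7a, Plxnb1 and Sema6c kept their call in replicates 2 and 3 in all 8 alternatives that left out no library. For the alternatives that moved a count the cause was not tested. Depth limits Epha2, Efna4, Ephb4, Sema3b, Sema3d and Robo3, which had fewer than 20 normalized counts in at least 1 library.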
